A study of Mus musculus with 3 samples.

Results

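The genes described here are the enzymes and carriers that take glucose to lactate or into the mitochondrion, together with the oxygen-sensing proteins that set the activity of the hypoxia-inducible factor HIF-1. They were chosen by gene symbol: 37 symbols, all present in the deposited tables, matched 38 of the 55536 genes, because the symbol Aldoa is carried by 2 gene identifiers. The RNA came from the chromatin fraction of C57BL/6J mouse macrophages grown from bone marrow and exposed to Lipid A, the TLR4-activating part of lipopolysaccharide, at 100 ng/ml for 25 min. Total RNA depleted of ribosomal RNA was sequenced in 3 libraries of this 1 group, labelled as biological replicates. Replicates 1, 2 and 3 were made from 1000, 250 and 500 ng of RNA, per the labels. No unstimulated sample was analysed here, so the values rank genes within stimulated cells and show no induction. The labels give all 3 libraries the same donor identifier and name no separate animals. Each library also has its own RNA amount, so a p-value of a slope below measures only scatter around a line in log2 RNA amount. That scatter is estimated with information shared across genes and may be technical. It is not a spread between animals or between repeats of an amount. Age and sex were not collected, per the labels.

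In glycolysis, glucose is phosphorylated by hexokinase, split by aldolase and oxidised to pyruvate, which is either reduced to lactate or carried into mitochondria for oxidation by the pyruvate dehydrogenase complex. HIF-1, a dimer of HIF-1α (Hif1a) and ARNT, activates many of these genes. In oxygenated cells the prolyl hydroxylases of the Egln family mark HIF-1α for destruction through VHL, and the asparaginyl hydroxylase FIH (Hif1an) blocks its activation domain. Macrophages exposed to bacterial products are known for increased glycolysis, in which HIF-1α takes part. RNA bound to chromatin is rich in transcripts still being made and not yet spliced, so a level here is not the amount of mature mRNA or protein.

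The gene tables held 13525994, 19230763 and 19207049 expected counts, the depth of replicates 1, 2 and 3. Genes of the ribosomal DNA locus took 8.46%, 27.1% and 23.1% of them, a share that was lowest where the RNA amount was highest. All 10 macrophage markers reached 1 TPM, among them Ptprc at 704.2 TPM, with summed levels of 2249.5 to 3703.5 TPM. Of 28 markers of neutrophils, T, B, mast, erythroid, stromal and endothelial cells, 2 reached 1 TPM (Ngp at 1.87 TPM and Kit at 1.71 TPM), 10 had no counts, and the summed level was 7.20 to 8.52 TPM. The chromatin-retained RNA Malat1 stood at 44534 ± 15438 TPM (SD, n = 3).

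Of the 38 genes, 34 had a mean level of at least 1 TPM, against 50.5% of 21898 protein-coding genes. Levels are in TPM, a length-corrected abundance scaled to the same total in each library over genes of at least 300 nt, and values are mean ± SD over the 3 libraries. The median of the 38 was 19.0 TPM, and the library medians were 18.5, 20.0 and 19.6 TPM. The median protein-coding gene stood at 1.09 TPM. Restricted to genes of at least 1 TPM, the medians were 26.6 TPM over 34 members and 16.4 TPM over 11060 protein-coding genes. Only Hk3, Pkm and Pfkfb3 exceeded 100 TPM on average. The 4 members below 1 TPM were Egln3, Slc16a1, Aldoc and the second Aldoa locus.

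**Figure D1:**
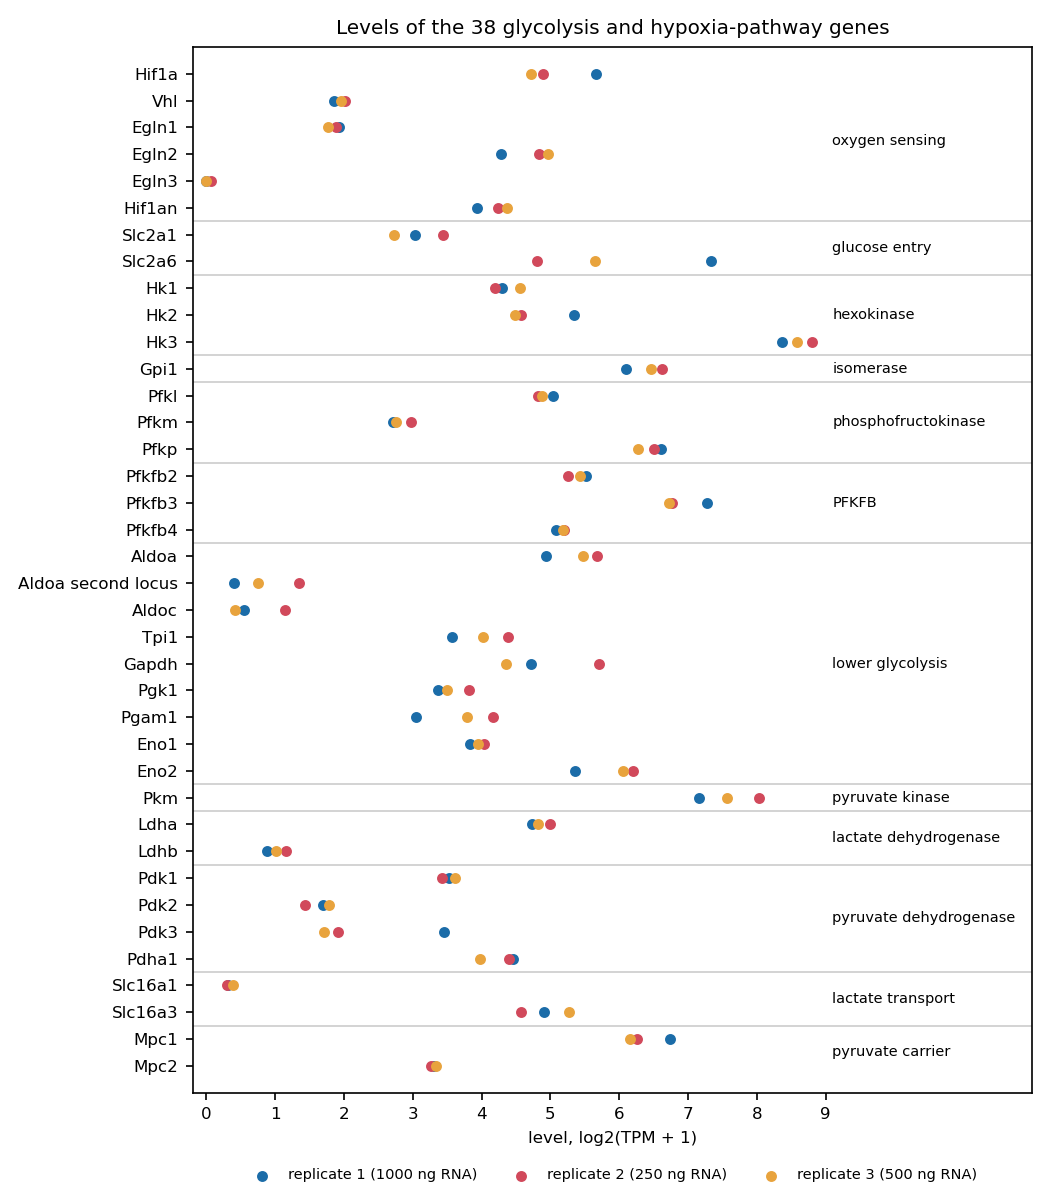
Level of each of the 38 genes as log2(TPM + 1) on the horizontal axis, 1 point per library, ordered along the pathway and separated by functional step. Hk3 lies farthest right and Egln3 lies at 0. Among members of at least 1 TPM, the points of Slc2a6, Pdk3 and Gapdh are spread widest for their mean.

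Among the oxygen-sensing genes, Hif1a (chromosome 12, 73901375 to 73947530, plus strand, mm10), which encodes the oxygen-regulated subunit, was the highest. Its levels were 49.7, 28.6 and 25.4 TPM in replicates 1, 2 and 3. Replicate 1 was the high one. These levels rest on 528, 475 and 479 counts. Egln2, the prolyl hydroxylase PHD1, reached 25.3 ± 6.17 TPM and Hif1an reached 17.3 ± 2.82 TPM. Egln1, the hydroxylase PHD2 that is regarded as the main oxygen sensor, was at 2.63 ± 0.211 TPM, and Vhl at 2.84 ± 0.204 TPM. Their ranges overlapped here, but in the kallisto-type tables Vhl stood at 10.7 TPM and Egln1 at 1.90 TPM. Egln3, the hydroxylase PHD3, had 0, 1 and 0 counts, which lies under the 3-count limit of each library (0.156 to 0.222 CPM, counting error only). Egln2 thus took 90.1% ± 3.02 of the summed TPM of the Egln genes.

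HIF-1 partners outside the members were also read. Arnt, the constitutive partner, stood at 155.9, 129.5 and 140.7 TPM, above Hif1a in every library. The coactivator gene Ep300 stood at 143.8 ± 4.17 TPM, and these 2 highest of the 12 regulators overlapped. Epas1, which encodes HIF-2α, was at 0.520, 2.95 and 0.630 TPM, highest in replicate 2. Hif3a had no counts in any library. Of the 12 regulators, 10 reached 1 TPM, against 50.5% of protein-coding genes.

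Slc2a6, encoding the transporter GLUT6, had the largest spread of the members of at least 1 TPM, an SD of 90.4% of its mean. Its levels were 159.6, 26.9 and 49.2 TPM (2161, 589 and 986 counts), so replicate 1 lay far above the others. Slc2a1, encoding GLUT1, had 7.19, 9.82 and 5.61 TPM, below Slc2a6 in every library. Its mean was 7.54 ± 2.13 TPM, and 16.5 TPM in the kallisto-type tables.

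Hexokinase, which traps glucose in the cell, was dominated by Hk3 (chromosome 13, 55005985 to 55021385, minus strand). Its levels were 329.4, 446.6 and 381.5 TPM, the highest of all members, and its mean exceeded 99.1% of protein-coding genes. Hk2, the inducible hexokinase, stood at 27.9 ± 10.2 TPM, and Hk1 at 18.6, 17.3 and 22.5 TPM. Hk1 and Hk2 overlapped. Hk3 held 88.8% ± 3.47 of the summed hexokinase TPM. Gpi1, the isomerase that follows, had 67.4, 97.0 and 87.0 TPM.

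Phosphofructokinase commits sugar to glycolysis. Its platelet-type gene Pfkp had 96.7, 90.3 and 76.0 TPM, the liver-type gene Pfkl stood at 29.2 ± 2.41 TPM, and the muscle-type gene Pfkm had 5.56, 6.88 and 5.78 TPM. These 3 levels did not overlap. The Pfkfb enzymes make and remove fructose 2,6-bisphosphate, the activator of phosphofructokinase. Pfkfb3, the form with the strongest kinase activity, had 154.5, 107.5 and 105.0 TPM. Pfkfb2 was at 41.4 ± 3.77 TPM, and Pfkfb4 had 33, 35.8 and 35.2 TPM, an SD of 4.29% of its mean.

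The 9 genes from aldolase to enolase had a median of 14.4 TPM. Eno2, the enolase best known from neurons, was the highest with 39.8, 72.8 and 65.7 TPM. Eno1, the widely expressed enolase, stood at 14.4 ± 1.08 TPM, and Eno2 held 79.8% ± 4.19 of the enolase TPM. Aldoa, the main aldolase, had 29.6, 50 and 43.3 TPM, while Aldoc had 0.457, 1.20 and 0.332 TPM from 3, 8 and 7 counts. The second locus named Aldoa, adjacent to the first, was at 0.848 ± 0.622 TPM. Triose phosphate isomerase (Tpi1) stood at 15.3 ± 4.47 TPM, phosphoglycerate kinase (Pgk1) at 10.9 ± 1.94 TPM and phosphoglycerate mutase (Pgam1) at 12.3 ± 4.85 TPM. The ranges of Tpi1 and Pgam1 overlapped each other and those of Pgk1 and Eno1, whereas Pgk1 lay below Eno1 in each library.

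Gapdh, the triose phosphate dehydrogenase often used as a reference gene, had 25.3, 51.1 and 19.4 TPM. This was the third largest spread among members of at least 1 TPM, an SD of 52.8% of the mean. Its level is uncertain, at 15.5 TPM in the kallisto-type tables: 177 annotated genes matched its transcripts at 90% identity or more over at least 80% of the length, and they held 388.2% of its own counts. The copies of Pgk1 held 36.6% of its counts, those of Ldha 16.1% and those of Eno1 10.7%. Iffo1, on the opposite strand, overlaps Gapdh and had 854, 1741 and 1777 counts against 194, 426 and 202 for Gapdh. No source used here states a strand setting for the counting, and 18 of the 38 members overlap a gene of the other strand. Among them, Hk3 overlaps Unc5a (43.5 TPM), Pfkp overlaps Pitrm1 (41.7 TPM) and Pfkm overlaps Senp1 (58.3 TPM), so reads of these pairs may have been divided between them.

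Pkm (chromosome 9, 59656368 to 59679375, plus strand), the pyruvate kinase gene, was the second highest member with 141.6, 259.9 and 187.7 TPM. Lactate dehydrogenase A (Ldha) had 25.5, 30.8 and 27.2 TPM, and Ldhb had 0.849, 1.23 and 1.01 TPM from 4, 12 and 8 counts. Ldha held 96.5% ± 0.314 of the pair. The lactate exporter Slc16a3 (MCT4) had 28.9, 22.8 and 37.6 TPM. Slc16a1 (MCT1) had 0.245, 0.234 and 0.301 TPM from 6, 9 and 11 counts. Slc16a7 (MCT2), a carrier outside the members, stood at 27.9 ± 9.40 TPM, so its range overlapped that of Slc16a3.

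At the entry to mitochondria, Mpc1, a subunit of the pyruvate carrier, had 105.4, 75.3 and 70.3 TPM. Its partner Mpc2 had 8.90, 8.65 and 9.14 TPM, the smallest spread of all members of at least 1 TPM (2.77% of the mean). Pdha1, the catalytic subunit of pyruvate dehydrogenase, had 20.9, 20.1 and 14.7 TPM. Of the kinases that switch the complex off, Pdk1 had 10.5, 9.72 and 11.2 TPM, Pdk2 had 2.25, 1.69 and 2.43 TPM, and Pdk3 had 10, 2.77 and 2.26 TPM. Pdk3 was close to Pdk1 in replicate 1 and close to Pdk2 in the others. These levels rest on 45, 27 and 22 counts.

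The transcript tables divide each gene's counts among annotated transcripts, and chromatin RNA placed many of them on transcripts with a retained intron. Over the 22 members with such a transcript and at least 50 counts, the median retained-intron share was 23.3% ± 3.51, against 26.3% over 6732 genes. It exceeded 50% in 6 members, which is 27.3% of the 22, against 25.5% of all. Mpc2 had 93.0% ± 1.35, Gpi1 90.2% ± 3.54, Pfkp 89.0% ± 4.19, Gapdh 66.9% ± 3.62, Eno2 62.7% ± 3.44 and Mpc1 61.1% ± 2.50. In the kallisto-type tables Mpc1 had 37.5%, and 5 of 22 members exceeded 50% (22.7%, against 31.5% of all). Of the counts of Pfkp, 66.7% lay on a single such transcript. Hif1a had 12.2% ± 2.25 and Ldha 12.8% ± 6.40, which was 26.0% for Ldha in the kallisto-type tables. Of the counts of Hk3, 26.7% ± 4.83 lay on a transcript annotated for nonsense-mediated decay (16.6% in the kallisto-type tables), and 68.5% ± 3.03 on coding ones. For Slc2a6 another type led: 98.0% ± 1.36 of its counts lay on noncoding transcripts without an open reading frame, 76.9% on a single one of them. In the kallisto-type tables the noncoding share of Slc2a6 was 69.9%. Pdk1 had 47.2% ± 6.39 of its counts on transcripts of this type, and 49.5% in the kallisto-type tables.

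**Figure D2:**
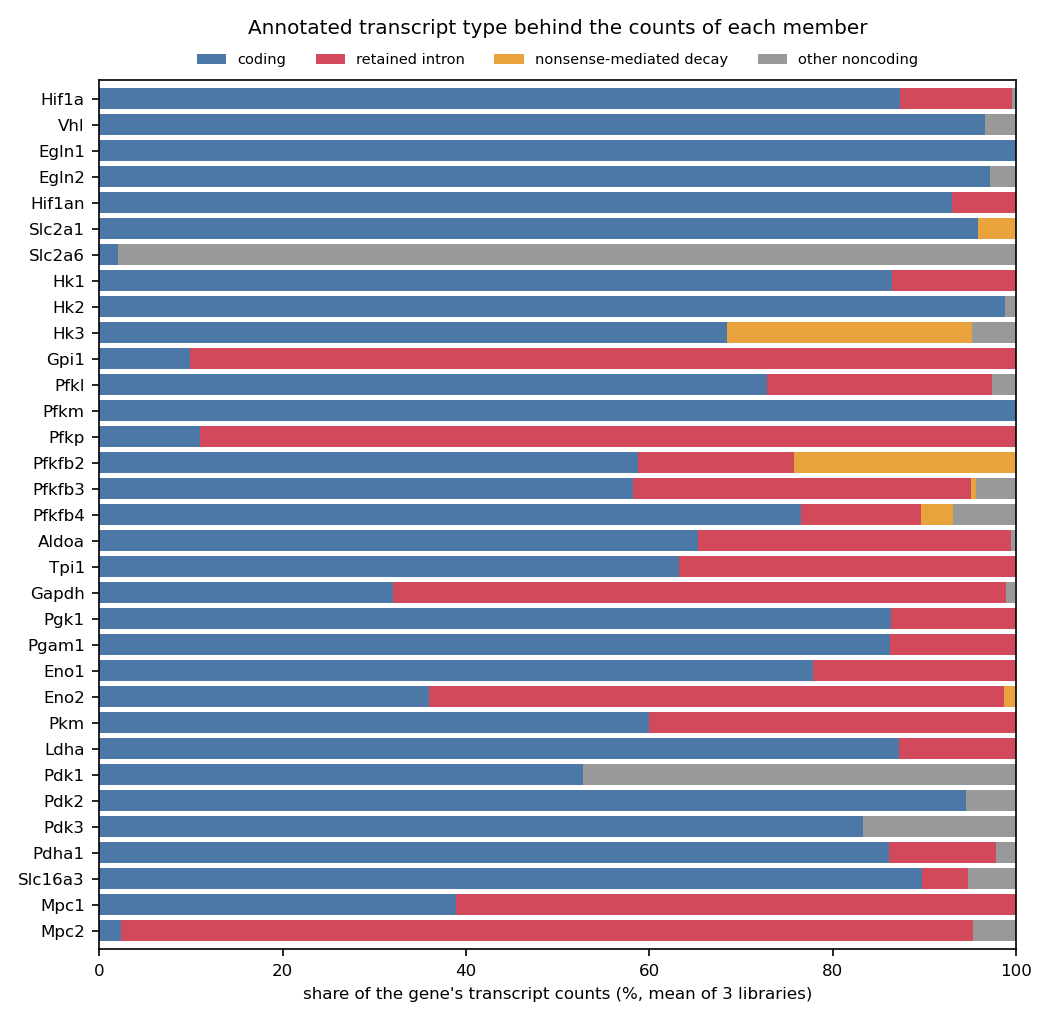
Share of each gene's transcript counts by annotated transcript type, mean of 3 libraries, for the members with at least 50 counts. The retained-intron part fills most of the bars of Gpi1, Pfkp and Mpc2 and, to a lesser degree, of Gapdh, Eno2 and Mpc1. The other noncoding part fills that of Slc2a6.

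The leading gene changed in 2 of the 11 families when noncoding transcripts were left out, in the tables with RSEM column names. With TPM summed over protein-coding transcripts only, an alternative chosen after seeing the data, Slc2a6 went from 86.2% ± 11.6 to 27.2% ± 25.6 of the pair, with 52.7%, 1.59% and 27.5% in replicates 1, 2 and 3. Slc2a1 then led in 2 of the 3 libraries. In these tables the coding transcript Slc2a6-202 had 0 counts in each library. In the kallisto-type tables it had 549, 307 and 503 counts, against 106, 227 and 141 for the coding transcript Slc2a1-201. The lead of Slc2a1 may thus depend on the table, and coding shares were not computed from the kallisto-type ones. Pfkp went from 71.2% ± 1.97 to 32.1% ± 9.19, below Pfkl at 44.2% ± 7.26, although Pfkp stayed above Pfkl in replicate 2. Pfkfb3 went from 61.2% ± 4.74 to 38% ± 6.08, which overlapped Pfkfb2 at 36.0% ± 2.59. Pdk1 went from 61.7% ± 13.5 to 48.8% ± 4.66 and still led. Hk3 kept 83.1% ± 6.07, Eno2 65.9% ± 7.70, Ldha 95.3% ± 0.496, Aldoa 99.2% ± 0.325, Egln2 88.0% ± 2.97, Slc16a3 97.6% ± 0.773 and Mpc1 97.6% ± 2.56.

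**Figure D3:**
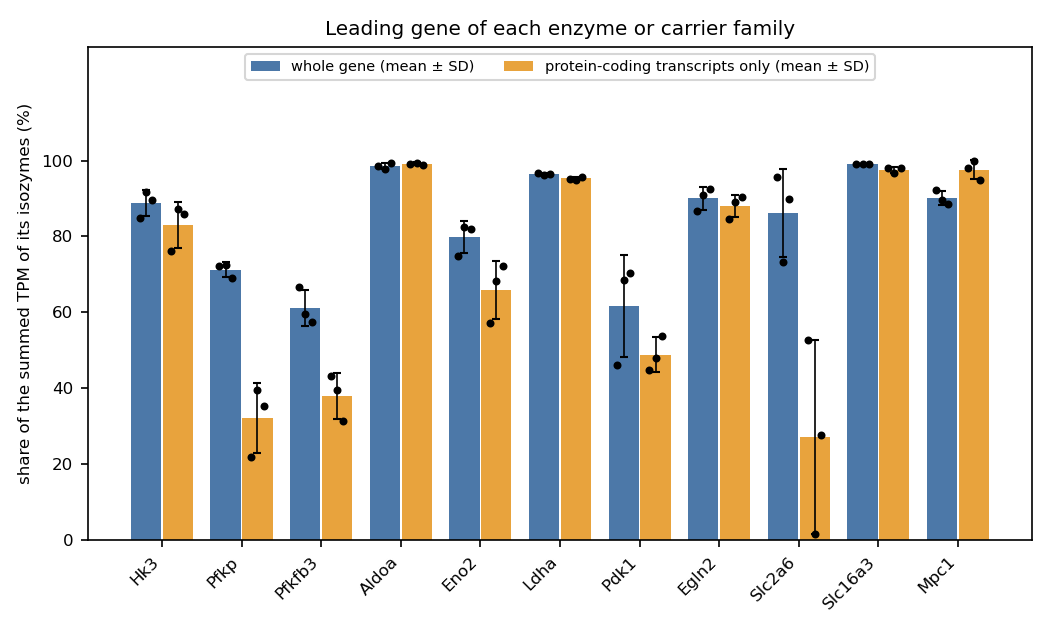
Share of the leading gene in the summed TPM of the members of its family, in percent, from whole genes and from protein-coding transcripts only. Both come from the tables with RSEM column names. Bars are means with SD and points are the 3 libraries. The bars of Slc2a6, Pfkp and Pfkfb3 fall below 50% when coding transcripts alone are counted, as does that of Pdk1 at 48.8%.

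Pkm makes 2 enzymes from a pair of mutually exclusive exons. The M1 form uses the first exon and the M2 form, typical of growing cells and macrophages, the second. Both exons have 167 bases and differ at 64 of them (61.7% identity), which is what lets reads be assigned to one form. They are printed from the mm10 genome on the plus strand, chr9:59675029-59675195 for M1 and chr9:59675568-59675734 for M2, with the differing bases in capitals.
M1 exon: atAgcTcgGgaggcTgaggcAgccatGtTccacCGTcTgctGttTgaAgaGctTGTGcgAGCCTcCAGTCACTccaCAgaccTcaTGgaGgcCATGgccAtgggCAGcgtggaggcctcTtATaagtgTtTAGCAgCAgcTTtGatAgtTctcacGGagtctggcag
M2 exon: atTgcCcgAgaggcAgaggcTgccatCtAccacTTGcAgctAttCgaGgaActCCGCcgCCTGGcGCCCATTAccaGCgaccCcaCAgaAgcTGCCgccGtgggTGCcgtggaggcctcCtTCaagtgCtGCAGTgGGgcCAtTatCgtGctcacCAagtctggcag
The transcript with the M2 exon held 475, 1597 and 1290 expected counts, and the one with the M1 exon held 198, 449 and 350. The M2 transcript therefore took 70.6%, 78.1% and 78.7% of the pair, a mean of 75.8% ± 4.48, and was the larger in every library. The kallisto-type tables gave 70.6% ± 1.19. Of all Pkm counts, 39.9% lay on a single retained-intron transcript. A further 912, 1853 and 1351 counts were assigned to Gm49759, a gene model awaiting experimental evidence inside Pkm on the same strand, so reads there may have been divided between both.

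HIF-1 binds the core motif RCGTG, searched here as ACGTG and GCGTG on both strands, with CACGTG counted once on each strand. In the 250 bases before annotated start sites (RefSeq, build GRCm38.p6), all 37 symbols were matched, with 55 windows. ACGTG was found in 23 windows (41.8%, against 16.6% of all 32851 windows) and GCGTG in 29 (52.7% against 28.2%). Either was found in 43 windows (78.2% against 38.6%) and in at least 1 window of 32 of the 37 members. The last count has no background, because the share over all genes was not computed. Some members have several windows, so it cannot be set against the share per window. Both motifs hold a CpG dinucleotide, and the member windows had a median of 14.0 CpG against 6.00 over all windows. The part of this base composition in the counts was not tested. A match describes letters, not a bound site. Windows are shown for Slc2a6 and Hk3, the members with the strongest opposite changes among the upper steps, and for Ldha, which had the most matches. They lie at chr2:27027999-27028248 (minus strand), chr13:55021386-55021635 (minus strand) and chr7:46845554-46845803 (plus strand), and capitals mark every match.
Slc2a6: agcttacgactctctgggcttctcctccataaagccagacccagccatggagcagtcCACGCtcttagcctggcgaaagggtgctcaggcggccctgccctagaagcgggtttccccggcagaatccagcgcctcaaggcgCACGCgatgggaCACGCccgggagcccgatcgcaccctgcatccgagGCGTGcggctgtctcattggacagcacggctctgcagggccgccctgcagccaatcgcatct
Hk3: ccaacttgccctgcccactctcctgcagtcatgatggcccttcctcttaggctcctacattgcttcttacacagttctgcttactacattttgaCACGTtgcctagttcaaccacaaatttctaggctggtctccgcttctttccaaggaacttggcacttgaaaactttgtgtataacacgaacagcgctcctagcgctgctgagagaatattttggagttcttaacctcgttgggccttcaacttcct
Ldha: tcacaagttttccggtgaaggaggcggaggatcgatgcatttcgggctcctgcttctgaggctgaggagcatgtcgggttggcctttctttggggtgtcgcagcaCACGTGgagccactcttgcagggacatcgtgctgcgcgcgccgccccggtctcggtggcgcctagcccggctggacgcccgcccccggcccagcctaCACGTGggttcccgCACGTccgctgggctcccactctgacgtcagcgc
The Slc2a6 window held 4 matches, all of GCGTG. The Hk3 window held 1, of ACGTG, and the Ldha window held 5, all of ACGTG, among them both strands of 2 CACGTG palindromes.

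The labelled RNA amount was the only variable on which the labels separate the libraries, and each gene's change per doubling of RNA was fitted with edgeR on expected counts. The fit left 1 residual degree of freedom, and only large or precise slopes could be called. Of 14108 genes tested, 4.71% were called higher and 3.09% lower with more RNA. Among the 33 members tested, 1 was higher, Slc2a6, and 4 were lower, Pkm, Hk3, Gpi1 and Aldoa. Slc2a6 rose by 1.07 ± 0.14 (SE) log2 units per doubling (edgeR, Benjamini-Hochberg adjusted p = 1.28e-06). Its order over libraries followed the RNA amount, 159.6 TPM at 1000 ng, 49.2 TPM at 500 ng and 26.9 TPM at 250 ng. Pkm had a slope of -0.64 ± 0.13 (edgeR adjusted p = 0.00126), and its order over libraries was the reverse. The slope of Hk3 was -0.56 ± 0.14 (edgeR adjusted p = 0.00659), that of Gpi1 -0.45 ± 0.14 (edgeR adjusted p = 0.033) and that of Aldoa -0.53 ± 0.16 (edgeR adjusted p = 0.0382). Without replicate 1, the slopes of Aldoa and Hk3 shrank to -0.29 and -0.35 and that of Slc2a6 to 0.69.

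Most of the other members had slopes of the same sign without passing the test, and 14 of the 33 (42.4%) had an unadjusted edgeR p under 0.05, against 23.2% of all genes tested. Of the 33, 25 had a negative slope (75.8%, against 51.6% of all genes tested), with a median of -0.18 against -0.01. These slopes rest on counts, without the length correction of the TPM, and slopes of TPM were not computed. In TPM, the medians of all members were 18.5, 20.0 and 19.6 in replicates 1, 2 and 3. Of the 16 tested enzymes from hexokinase to lactate dehydrogenase, 15 had a negative slope, all but Hk2, with a median of -0.45, and 4 were called. In TPM, the ratio of replicate 1 to replicate 2 was above 1 for Hk2 (1.74), Pfkl (1.17), Hk1 (1.07) and Pfkp (1.07). It was below 1 for the other tested enzymes, from 0.429 for Pgam1 to 0.860 for Eno1. For Hk1, Pfkl and Pfkp, the direction between these libraries in TPM thus differed from the sign of the slope. Pgam1 had a slope of -0.65, Tpi1 -0.59, Eno1 -0.54, Pgk1 -0.46, Gapdh -0.44, Ldha -0.44 and Eno2 -0.42. Their adjusted p-values in edgeR lay between 0.0687 and 0.19. Without replicate 1 the slopes were -0.33 for Pgam1, -0.23 for Eno1, -0.19 for Eno2 and -1.12 for Gapdh, and without replicate 2 that of Gapdh was 0.25. Pfkp had a slope of -0.06, Pfkfb3 0.12, Hk2 0.07 and Hif1a 0.21, and none kept its sign under the omission of each library. Without replicate 1, Hif1a had -0.03, Pfkfb3 -0.04 and Hk2 -0.12, and without replicate 2, Pfkp had 0.11. In bulk RNA, a smaller number of cells of a kind and less RNA per cell cannot be told apart. The ribosomal-locus share was lowest at 1000 ng and highest at 250 ng. The summed macrophage markers were at 3703.5, 2249.5 and 2757.5 TPM in replicates 1, 2 and 3, in the order of the RNA amounts, and 1 of the 10 was called higher, Ptprc (slope 0.43 ± 0.14, edgeR adjusted p = 0.0461). DESeq2 called none of the 10. Their slopes ran from -0.22 (Cd14) to 0.43 (Ptprc) with a median of 0.01, so the order of the sum did not hold for every marker. Of the nuclear RNAs Malat1, Neat1 and Rn7sk none was called by edgeR or DESeq2, and 0 had an unadjusted edgeR p under 0.05. The part of the ribosomal-locus share and of the markers in the members' slopes was not tested, and with 1 library per RNA amount, the amount and the library cannot be told apart.

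**Figure D4:**
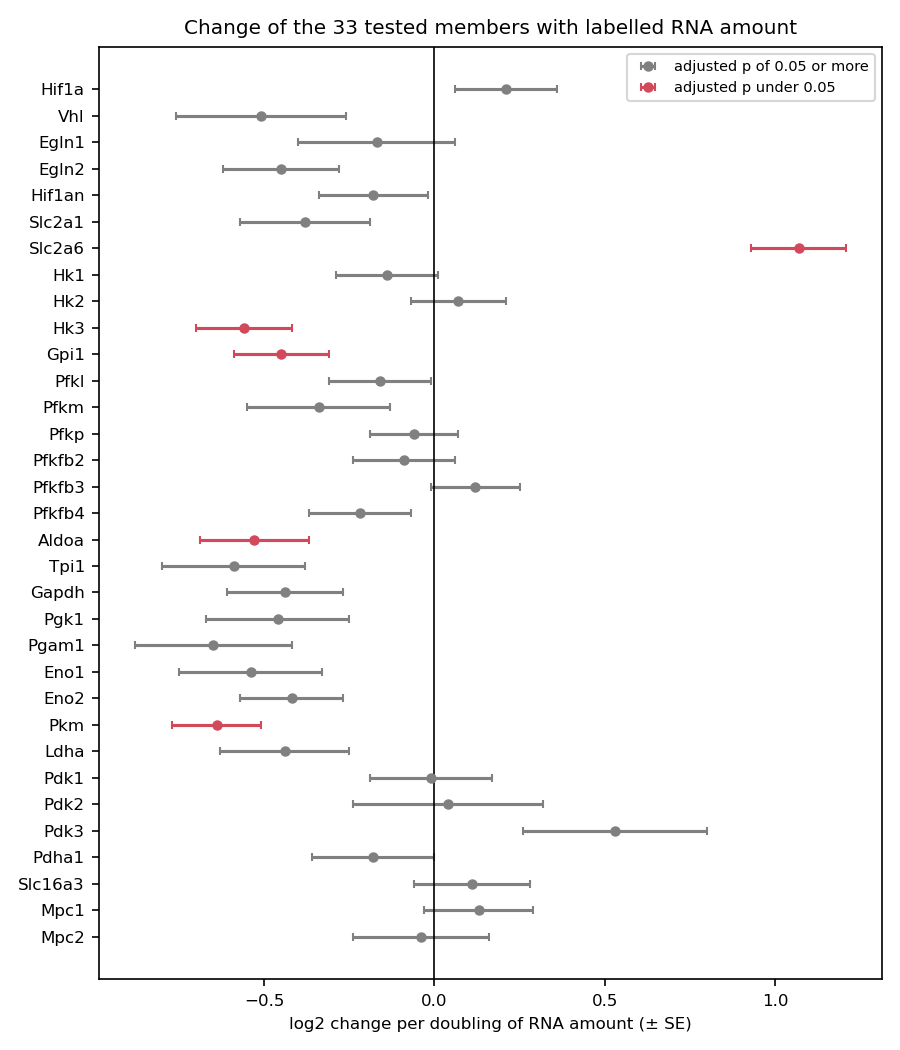
Log2 change per doubling of RNA amount (± SE, edgeR) for the 33 members tested, in pathway order. The fit is on counts without length correction, and called genes are in red. Slc2a6 stands alone on the right at 1.07, and the enzymes from Aldoa to Ldha all lie left of 0.

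Genes of neighbouring pathways were read from lists. For comparison, 50.5% of protein-coding genes reached 1 TPM. Of all genes tested with RNA amount, edgeR called 4.71% higher and 3.09% lower, and 23.2% had an unadjusted edgeR p under 0.05. Of 22 HIF targets outside glycolysis, 19 reached 1 TPM and none of the 16 tested was called with RNA amount by edgeR or DESeq2 (4 had an unadjusted edgeR p under 0.05). Vegfa had a slope of -0.45 (edgeR adjusted p = 0.0585). It was called without the count filter (edgeR adjusted p = 0.0257) and with replicate 1 against the others (edgeR adjusted p = 0.00817), and its slope was 0.04 without replicate 1. Vegfa, the angiogenic growth factor, was the highest at 563.2, 929.6 and 1002.4 TPM, above every glycolytic member, followed by the transferrin receptor gene Tfrc at 324.1 ± 138.3 TPM. Car12 was the lowest at 0.146 ± 0.0816 TPM. All 9 pentose phosphate genes reached 1 TPM, led by Pgd at 136.6 ± 25.1 TPM, with G6pdx, the entry enzyme, at 21.7 ± 3.49 TPM and Rpia lowest at 2.80 ± 1.11 TPM. None of these 9 was called by edgeR or DESeq2, and 4 had an unadjusted edgeR p under 0.05, with a median slope of -0.36. Of 27 genes of pyruvate dehydrogenase and the TCA cycle, 25 reached 1 TPM, led by Dlst at 197.2 ± 44.3 TPM and Sdha at 97.5 ± 16.2 TPM, and Pdk4 had no counts. None of the 25 tested was called by edgeR or DESeq2 (2 had an unadjusted edgeR p under 0.05). Of 23 isozymes and carriers outside the members, 9 reached 1 TPM, led by Slc16a7 and by Adpgk, an ADP-dependent glucokinase, at 23.2 ± 1.42 TPM. The tissue-restricted genes Hkdc1, Pgk2, Fbp2 and G6pc had no counts.

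In these lists 3 genes were called with RNA amount, by edgeR with Benjamini-Hochberg adjustment over all genes. They were 1 higher and 1 lower of 10 regulators tested, and 1 higher of 9 isozymes and carriers tested. Over all genes tested, 4.71% were called higher and 3.09% lower. DESeq2 called neither Cited2 nor Slc16a7 and gave no adjusted p for Epas1. Epas1 was lower (slope -0.99 ± 0.27, adjusted p = 0.0187) on 16, 72 and 29 counts, with a slope of -0.50 without replicate 2. Cited2, a competitor of HIF-1α for coactivators, was higher (0.63 ± 0.18, adjusted p = 0.027), with 91.5, 34.7 and 91.4 TPM in replicates 1, 2 and 3, and its slope turned to -0.18 without replicate 2. Slc16a7 was higher (0.51 ± 0.15, adjusted p = 0.0245), with a slope of 0.05 without replicate 1.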

How the data were processed

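RNA of the chromatin fraction was read in 3 libraries of 1 group. Deposited gene and transcript tables give expected counts and TPM under the column names RSEM writes, and another deposited table gives estimated counts and TPM under those of kallisto, per the file headers. Posterior standard deviations of the counts, another deposited column, were read only as a measure of assignment error. Assembly mm10 and annotation release M21 are named by the deposited readme files. No aligner, tool version or strand setting is named in those sources.

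Each level is the expected count per effective length, rescaled to TPM across all genes averaging 300 nt or longer. Entries left out (shorter genes, tRNA and spike-ins) held 61.7% to 67.1% of the deposited TPM. Total counts were 13525994, 19230763 and 19207049, so 3 counts equal 0.222, 0.156 and 0.156 CPM. Intervals and limits cover counting error only.

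Slopes per doubling of RNA were fitted with edgeR 4.0.16 (R 4.3.3, TMM, filterByExpr without a design, quasi-likelihood F test) on rounded expected counts, adjusted over all genes (threshold 0.05), with the SE taken from F. No sample was dropped or imputed. On simulated counts for this comparison, with 200 genes changed, 7 were recovered at 0.5 log2 units and 199 at 1 (dispersion 0.02, 14465 and 14454 genes tested). At a dispersion of 0.1, 0 and 12 were recovered. The real fit called 665 genes higher and 436 lower, and its dispersion was not fixed. The recovered numbers therefore do not give the power of the real fit. Near copies were found with BLAST 2.17.0. Tables were handled in Python 3.11.15 (pandas 2.3.3, numpy 2.4.6) and plotted with matplotlib 3.10.9. Alternatives were deposited TPM, the kallisto-type tables, genes of any length, other minimums, RLE, DESeq2 1.42.0, other filters, replicate 1 against the others, coding transcripts only and leaving out each replicate.

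Members and lists were chosen with earlier results of these data known. Every member is named with a level. Library values are given for called members, the highest and lowest of each step, and the 3 largest and 3 smallest relative SDs. Each pathway list gives its 2 highest, its lowest and its called genes, and Arnt, Epas1 and Hif3a always. Other genes named were chosen after their values were seen.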

Additional observations from a re-analysis of the deposited data

How the results depend on the processing

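No paired analysis was possible because the libraries form 1 group. The number of members of at least 1 TPM was 31 to 36 under other tables and a minimum of 0.5 TPM, and 30 at 5 TPM. Leaving out each replicate gave 33 to 35. The median level of 19.0 TPM became 6.91 TPM in the deposited TPM and 6.92 TPM over genes of any length, because short RNAs enter the scaling, and 17.6 TPM in the kallisto-type tables. Without single replicates it was 19.2 to 19.4 TPM. One member, Slc2a6, was higher with RNA amount in each of the 7 alternative fits. The 4 lower members became 2 with the count filter given the design, 1 with kallisto-type counts, 2 with DESeq2 and 8 with replicate 1 against replicates 2 and 3. Over all genes, the 665 higher and 436 lower calls became 281 and 87 with DESeq2, 343 and 160 with kallisto-type counts, 449 and 212 with the design filter, and 1206 and 1109 with replicate 1 against the others. Pkm was lower in all of them, and Hk3 in all but the kallisto-type counts (edgeR adjusted p = 0.0556). Gpi1 lost its call without a filter (edgeR adjusted p = 0.0525), with the design filter (0.0623), with kallisto-type counts (0.0658) and in DESeq2 (0.13). Aldoa lost it with the design filter (edgeR adjusted p = 0.0647), kallisto-type counts (0.0537) and DESeq2 (0.157). Epas1 lost its call with kallisto-type counts (edgeR adjusted p = 0.384) and with replicate 1 against the others (0.133). Cited2 lost it with the design filter (edgeR adjusted p = 0.0834), kallisto-type counts (0.0915), replicate 1 against the others (0.541) and DESeq2 (0.0989). Slc16a7 lost it with the design filter (edgeR adjusted p = 0.0591), kallisto-type counts (0.123) and DESeq2 (0.142). Mean levels of single members moved by over 1.5 times in the kallisto-type tables for Vhl (10.7 TPM), Slc2a1 (16.5), Hif1an (11.4), Gpi1 (53.8), Gapdh (15.5), Aldoc (0.369) and Ldhb (0.615). The slope of Cited2 ranged from -0.18 without replicate 2 to 1.44 without replicate 1. The median retained-intron share was 41.2% by TPM and 27.8% in the kallisto-type tables, and 21.5% to 25.0% without single replicates. Leading isozyme shares among the members, in the kallisto-type tables, were 98.2% for Ldha, 95.2% for Egln2, 99.5% for Slc16a3 and 92.2% for Mpc1. Over coding transcripts, in the tables with RSEM column names only, they were 83.1% for Hk3, 32.1% for Pfkp, 38% for Pfkfb3 and 65.9% for Eno2. They were 95.3% for Ldha, 27.2% for Slc2a6, 97.6% for Slc16a3 and 97.6% for Mpc1. Leaving out each replicate gave 87.3% to 90.8% for Hk3, 70.5% to 72.3% for Pfkp, 58.5% to 63.1% for Pfkfb3, 98.1% to 98.9% for Aldoa, 78.4% to 82.2% for Eno2, 96.2% to 96.6% for Ldha, 57.3% to 69.5% for Pdk1, 88.9% to 91.8% for Egln2, 81.5% to 92.8% for Slc2a6, 99.1% to 99.2% for Slc16a3 and 89.1% to 91.0% for Mpc1. The M2 share of Pkm was 70.6% in the kallisto-type tables, 72.0% by TPM and 74.3% to 78.4% without single replicates. Except for the scaling named above, the cause of these shifts was not tested.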
